A study of Mus musculus with 240 samples.

Results

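Gastrocnemius, the large fast muscle of the calf, was compared between 2 inbred strains for its response to obesity at 10 weeks of age. The members are the 20 arrays of gastrocnemius at 10 weeks, chosen by tissue and age in the labels from 240 arrays of the series, with 5 male mice in each of 4 groups: B6 lean, B6 ob, BTBR lean and BTBR ob. B6 (C56Bl/6 in the labels) and BTBR mice came from in-house colonies. The ob mice carry the ob mutation of Lep, which removes the satiety hormone leptin, so obesity and loss of leptin come together in both ob groups, and all mice were male. Each array has 2 colours and sets the RNA of 1 mouse against a pool of RNA from 20 animals of that strain, and whether the pool holds these mice is not stated. As background, leptin-deficient BTBR mice become severely diabetic while leptin-deficient B6 mice are largely spared. The comparison addresses which genes respond to obesity differently in the muscle of the strain that becomes diabetic.

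The obesity effect of a strain is the mean of its ob mice less that of its lean mice. The strain difference subtracts the effect in B6 from that in BTBR. Both pools cancel in it, and the level of 1 strain against the other cannot be read from these arrays. Values are log2 ratios of a mouse to its pool, so 1 unit is a doubling. After ± stands the SE (standard error) that limma gave, with n = 5 mice per group. A gene "rose", "fell" or was "higher" or "lower in BTBR" where its effect or strain difference passed an adjusted p of 0.05 in limma among 19896 genes. "Higher in BTBR" thus means a more positive response to obesity in BTBR, not a higher level. Ratios hold no absolute level, so the labelled tissue could not be checked against the abundance of its markers. Precision is limited by how many arrays there are. Whether the mice came from separate litters or cages is not stated, and the p-values measure the spread between these animals.

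The direction of the ratio was not stated and is likely mouse over pool. In lean mice, genes that are known to fall after weaning read lower at 10 than at 4 weeks. With age 52.9% of all genes changed, 22.6% down and 30.2% up. Of 36 mitosis and DNA replication genes, 28 fell and 4 rose, and of 19 imprinted genes of juvenile growth, 14 fell and 3 rose. Igf2, a fetal growth factor, changed by -2.65 ± 0.12 and Mki67, a marker of dividing cells, by -2.74 ± 0.29. With the sign turned, every rise below reads as a fall. Lep itself stayed between -0.06 and 0.26 in all 20 gastrocnemius samples. The ob mutation is a point change, which need not remove the transcript. Lean and ob ranges of Lep overlapped in gastrocnemius in both strains, so these values check nothing about the gastrocnemius labels. In gonadal adipose tissue of the same 4 groups, Lep medians were -1.55 and -1.45 in lean mice and 0.83 and 0.85 in ob mice, with no overlap between lean and ob.

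Muscle burns fatty acids by taking them up, tying them to coenzyme A, moving them into mitochondria through the carnitine shuttle and shortening them by β-oxidation. Genes for these steps are known targets of the fatty acid receptors PPARα and PPARδ, which in fasting muscle also raise Pdk4, the kinase that shuts pyruvate out of the mitochondrion. Muscle is bundled by a collagen matrix made mainly by fibroblasts, and its fibres keep time with a circadian clock whose E-box sites drive the Per genes. Promoters are printed for the pair of neighbouring thioesterase genes with the widest strain difference because the pair moved together. They are also printed for Per1 and Tef, chosen among the 4 clock genes that were higher in BTBR because a promoter of theirs holds the E-box. Per1 had 2 promoters to search, of which 1 holds it and is printed. Tef had 2, and both hold it. The promoter of Cry2, another of the 4, held none and is not printed. Per2, also of the 4, had no promoter to search. Each is 300 bases across the gene's start on the + strand, from RefSeq on GRCm38.p6. Capitals mark CCAAT (read as ATTGG from the other strand) in the Acot genes and the E-box CACGTG in Per1 and Tef. For each gene the promoter printed is the first that holds the marked letters, so their presence comes with that choice.

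Acot1, chr12:84009252-84009551: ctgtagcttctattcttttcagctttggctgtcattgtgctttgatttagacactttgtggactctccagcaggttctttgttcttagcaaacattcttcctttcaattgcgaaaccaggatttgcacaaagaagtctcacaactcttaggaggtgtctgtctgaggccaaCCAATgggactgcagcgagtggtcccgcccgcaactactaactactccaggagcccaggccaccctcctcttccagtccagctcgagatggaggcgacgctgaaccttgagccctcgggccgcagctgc
Acot2, chr12:83987611-83987910: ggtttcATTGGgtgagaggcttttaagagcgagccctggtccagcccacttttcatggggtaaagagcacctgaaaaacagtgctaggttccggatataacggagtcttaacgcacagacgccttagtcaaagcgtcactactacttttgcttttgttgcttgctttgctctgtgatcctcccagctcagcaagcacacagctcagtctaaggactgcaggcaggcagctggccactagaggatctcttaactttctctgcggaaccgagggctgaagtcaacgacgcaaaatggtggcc
Per1, chr11:69098699-69098998: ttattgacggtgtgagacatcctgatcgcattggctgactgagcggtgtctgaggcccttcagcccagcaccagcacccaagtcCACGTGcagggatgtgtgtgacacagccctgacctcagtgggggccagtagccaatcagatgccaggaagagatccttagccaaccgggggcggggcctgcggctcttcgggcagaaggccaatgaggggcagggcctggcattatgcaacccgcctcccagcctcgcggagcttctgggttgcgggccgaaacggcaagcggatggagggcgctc
Tef, chr15:81802423-81802722: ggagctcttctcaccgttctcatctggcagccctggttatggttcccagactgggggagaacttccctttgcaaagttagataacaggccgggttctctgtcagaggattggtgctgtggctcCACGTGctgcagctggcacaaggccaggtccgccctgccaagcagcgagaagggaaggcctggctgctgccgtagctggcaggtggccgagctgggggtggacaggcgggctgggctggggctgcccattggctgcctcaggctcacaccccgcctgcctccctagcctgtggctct

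Both strands were searched. CACGTG stood in 7.15% of 32851 RefSeq promoters of this length and in 5 of the 16 clock genes with a promoter in the table. CCAAT stood in 37.4% of the promoters, in 15 of 31 genes of fatty acid oxidation and in 11 of 16 clock genes. The direct repeat DR1, AGGTCA repeated after 1 base, stood in 0.0396% of the promoters and in 0 of the 31 genes. A gene counts if any of its promoters holds the letters, so shares of genes and of promoters are not on the same base. These are letters in a window and were not tested as sites.

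A pair of mice stood apart. BTBR lean mouse 26 had the highest mean of its group in adipocyte markers (0.70, the other 4 between -0.15 and 0.08), macrophage markers (0.70, the others between -0.28 and -0.06) and genes of interferon response and antigen presentation (1.26, the others between -0.17 and 0.11). B6 ob mouse 9 had the lowest mean of adipocyte markers in its group (-0.20, the other 4 between 0.03 and 0.22) and the lowest mean of extracellular matrix genes (-0.49, the others between -0.28 and -0.08). Some results are also given without this pair, an alternative chosen after seeing the data. The plot of list means by mouse shows both.

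**Figure D1:**
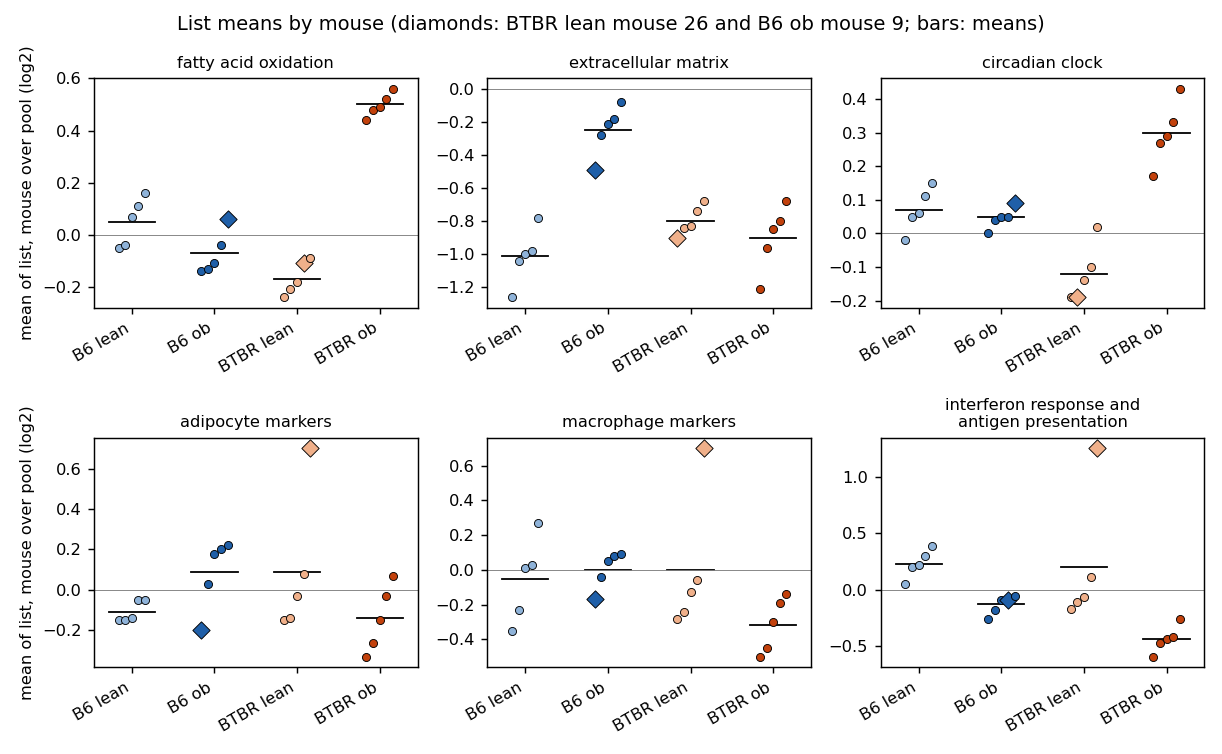
Mean log2 ratio (mouse over pool) of the measured members of 6 gene lists in each of 20 mice, gastrocnemius, 10 weeks; points are mice, bars group means, and diamonds BTBR lean mouse 26 and B6 ob mouse 9. The BTBR ob mice sit between 0.44 and 0.56 for fatty acid oxidation, above all BTBR lean mice. Mouse 26 sits at 1.26 for interferon response, above all other BTBR mice.

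The strain difference passed for 1316 of 19896 genes (6.61%), of which 544 (2.73%) were higher and 772 (3.88%) lower in BTBR. Without mice 26 and 9 it passed for 411 higher and 692 lower. A set of 815 genes passed in each of 20 refits that left out 1 mouse. The median over all genes was -0.01. Within B6, 3232 genes (16.2%) changed with obesity, 1628 up (8.18%) and 1604 down (8.06%). Within BTBR, 5008 genes (25.2%) changed, 2363 up (11.9%) and 2645 down (13.3%). Across genes the effects in the 2 strains had a Pearson r of 0.49, as a description, since genes are not independent replicates.

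**Figure D2:**
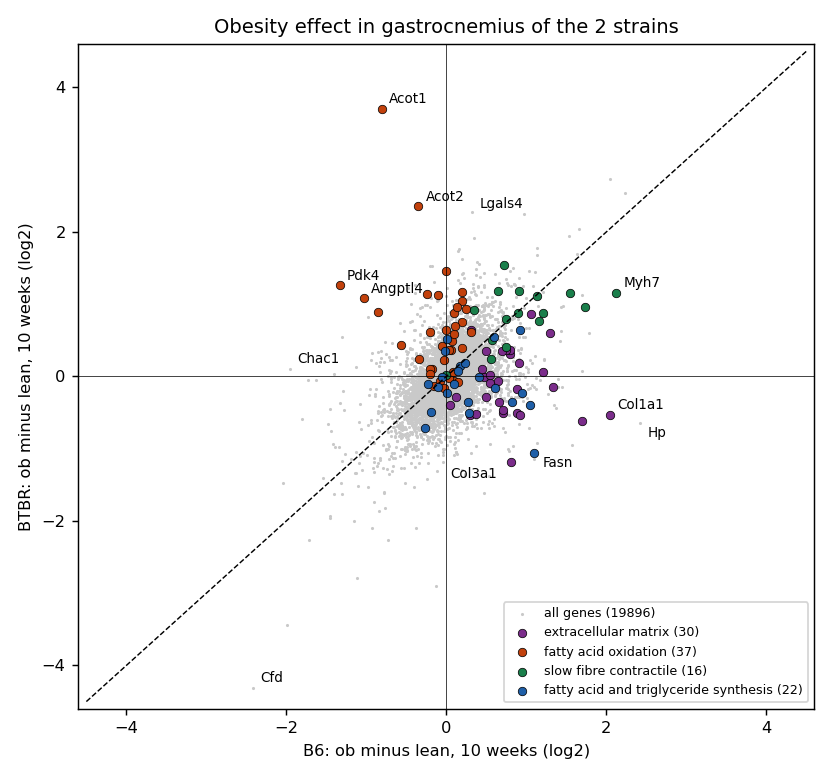
Obesity effect in BTBR (vertical axis, log2) against that in B6 (horizontal axis, log2) for 19896 genes in gastrocnemius at 10 weeks; coloured points are members of 4 gene lists and the dashed line marks equal effects. Acot1, Acot2 and Pdk4 lie far above the line, and Col1a1, Col3a1 and Fasn far below it.

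Genes of fatty acid uptake and oxidation rose in BTBR ob muscle and mostly did not pass in B6. Of 37 measured members, 23 were higher in BTBR and 0 lower (27 and 0 at an unadjusted p under 0.05 in limma), and the members' median strain difference was 0.56. Within BTBR 24 rose and 0 fell, with a median effect of 0.59. Within B6 2 rose and 6 fell, with a median of -0.01. Without mice 26 and 9, 23 were higher in BTBR and the median was 0.52.

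Acot1, a cytosolic thioesterase that frees fatty acids from coenzyme A, had the widest strain difference of the genes named here. Its values in B6 were -0.32, -0.23, -0.03, 0.53 and 0.86 in lean and -0.89, -0.79, -0.69, -0.64 and -0.21 in ob mice. In BTBR Acot1 read -2.21, -2.14, -2.07, -2.06 and -1.69 in lean and 1.32, 1.61, 1.75, 1.81 and 1.87 in ob mice. All BTBR ob mice lay above all BTBR lean mice, while B6 ob mouse 9 reached into the B6 lean range. The strain difference was 4.51 ± 0.32, a 22.8-fold difference in response (adjusted p = 4.1e-12), from effects of -0.81 ± 0.22 in B6 and 3.70 ± 0.22 in BTBR, both past the threshold. Acot2, its mitochondrial counterpart, followed with 2.71 ± 0.19 (adjusted p = 4.1e-12), where the BTBR lean mice lay between -1.19 and -0.74 and the ob mice between 1.14 and 1.52. The sequences of Acot1 and Acot2 are close, so their probes may read each other, and the split between them is uncertain.

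Pdk4 moved in opposite directions in the strains. It read -0.04, 0.13, 0.61, 0.86 and 0.97 in B6 lean and -1.12, -0.98, -0.93, -0.65 and -0.47 in B6 ob mice. In BTBR it read -0.55, -0.40, -0.35, -0.30 and 0.01 in lean and 0.67, 0.68, 0.93, 1.21 and 1.22 in ob mice. Lean and ob mice did not overlap in either strain. The effects of -1.33 in B6 and 1.26 in BTBR both passed, with a strain difference of 2.60 ± 0.35 (adjusted p = 6.7e-06) that its 3 probes gave as 2.69, 2.56 and 2.54.

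Angptl4, a secreted inhibitor of lipoprotein lipase, changed in the same opposed way. Its B6 values were -0.45, -0.33, 0.26, 0.26 and 0.65 in lean and -1.22, -1.20, -1.15, -0.63 and -0.56 in ob mice. For BTBR they were -0.82, -0.69, -0.43, -0.42 and 0.39 in lean and 0.11, 0.54, 0.73, 0.99 and 1.06 in ob mice. The B6 groups did not overlap, and in BTBR mouse 26 alone, at 0.39, reached into the ob range. The strain difference was 2.11 ± 0.31 (adjusted p = 2.2e-05). Ucp3, a mitochondrial carrier protein of muscle, had a strain difference of 1.75 (adjusted p = 0.026) and Ucp2, its relative, 1.38 (adjusted p = 1.5e-05). Ucp3 did not pass in every refit that left out 1 mouse.

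Further along the pathway the differences were smaller. Fabp3, the fatty acid carrier of muscle cytosol, differed by 1.45 with an effect of 0.00 in B6 and 1.46 in BTBR. Mlycd, which removes the malonyl-coenzyme A that blocks the carnitine shuttle, differed by 1.22, and Slc25a20, the carnitine carrier of the inner membrane, by 0.69. Acadl, Hadhb, Hadha and Acaa2, enzymes of the β-oxidation spiral, differed by 0.96, 0.81, 0.50 and 0.56, and all of these passed. The transporter Cd36 differed by 0.65 and the activating enzyme Acsl1 by 0.83. Cpt1b, the muscle form of the gate of the shuttle, was at 0.41 (adjusted p = 0.10), and the regulators Ppara, Ppard and Ppargc1a at 0.57, -0.01 and -0.23 (adjusted p = 0.26, 0.98 and 0.71), none of which passed.

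Plin5, a coat protein that ties lipid droplets to mitochondria and was not on that list, had a strain difference of 1.60 ± 0.25 (adjusted p = 4.7e-05). It read -0.85, -0.79, -0.73, -0.69 and -0.56 in BTBR lean and 0.85, 0.90, 1.04, 1.17 and 1.21 in BTBR ob mice, while the B6 groups, between -0.56 and 0.53, overlapped. Cat, the catalase that removes hydrogen peroxide, differed by 1.05 ± 0.13 (adjusted p = 2.3e-06). Cidea, a lipid droplet protein on the list of adipocyte markers, differed by 1.22 ± 0.23 (adjusted p = 0.00087), against the direction of the other adipocyte markers that passed.

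**Figure D3:**
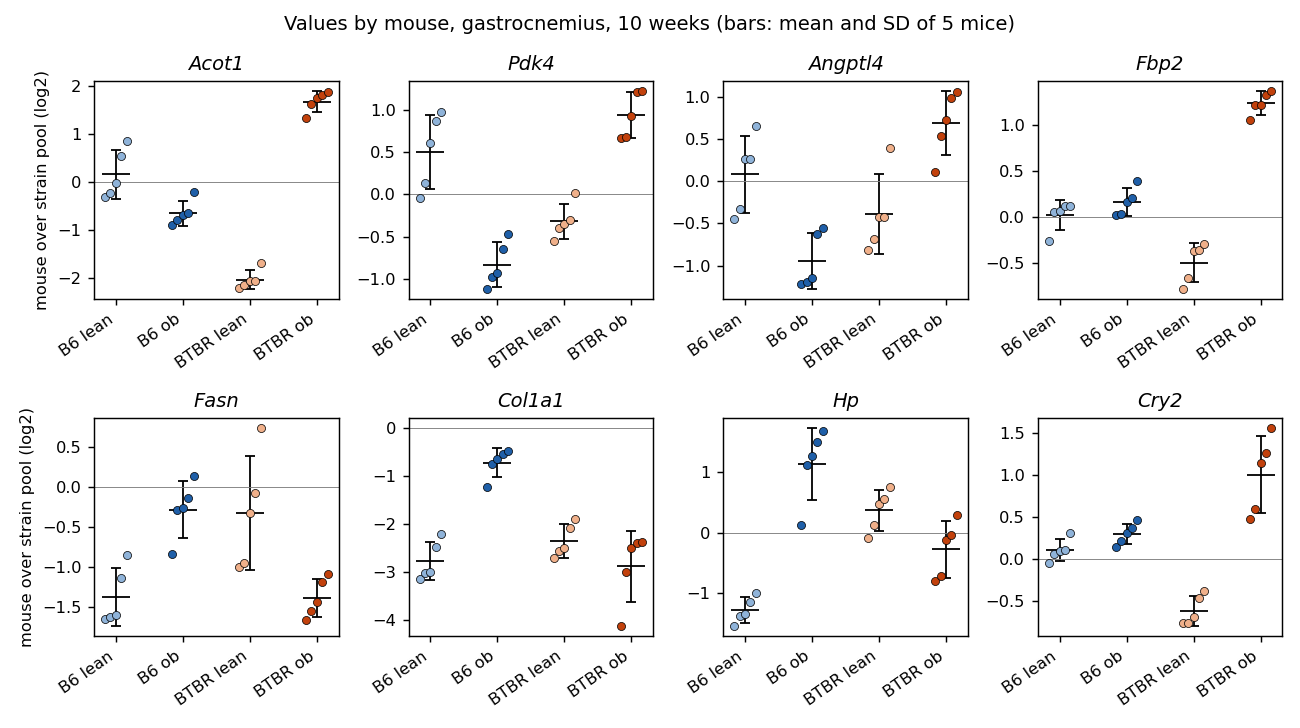
Log2 ratio of mouse over pool for 8 genes in each of 20 mice, gastrocnemius, 10 weeks; points are mice, and bars the mean and SD of 5 mice. Acot1 is between 1.32 and 1.87 in BTBR ob and between -2.21 and -1.69 in BTBR lean mice. Col1a1 is between -1.24 and -0.48 in B6 ob mice, above every B6 lean mouse.

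Extracellular matrix genes rose in B6 ob muscle and were lower in BTBR by the strain difference. Of 30 members, 20 were lower and 0 higher in BTBR (26 and 0 at an unadjusted p under 0.05 in limma), with a median of -0.72. In B6 25 rose and 0 fell, with a median effect of 0.71. In BTBR 6 rose and 11 fell, with a median of -0.12. Without mice 26 and 9, 20 members were again lower and the median was -0.79. In a bulk sample, fewer cells of a type and less RNA per cell cannot be told apart.

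Col1a1, a chain of type I collagen, read -3.14, -3.03, -2.99, -2.48 and -2.22 in B6 lean and -1.24, -0.76, -0.66, -0.54 and -0.48 in B6 ob mice. In BTBR its values were -2.71, -2.56, -2.50, -2.08 and -1.89 in lean and -4.12, -2.99, -2.50, -2.40 and -2.38 in ob mice. The B6 groups stood fully apart and the BTBR groups overlapped, with BTBR ob mouse 18 the lowest of the BTBR mice at -4.12. The strain difference was -2.57 ± 0.37 (adjusted p = 1.5e-05), and -2.26 to -2.71 when any 1 mouse was left out. Col1a2, the partner chain, gave -2.32 ± 0.30 (adjusted p = 4.3e-06).

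Col3a1, the collagen of fine fibrils, had effects of 0.81 ± 0.19 in B6 and -1.18 ± 0.19 in BTBR, both past the threshold, and a strain difference of -1.99 ± 0.27 (adjusted p = 7.9e-06). Its BTBR lean mice lay between -1.49 and -1.20 and its BTBR ob mice between -3.27 and -2.09, without overlap. Fibronectin (Fn1) differed by -1.46, the collagen VI chains Col6a1, Col6a2 and Col6a3 by -1.06, -1.18 and -1.39, the collagen-binding protein Sparc by -1.16 and the protease inhibitor Timp1 by -1.48, all past the threshold. The crosslinking enzyme Lox was at -0.20 (adjusted p = 0.76) and rose in both strains, by 1.06 in B6 and 0.86 in BTBR.

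Markers of cells that could make this matrix were counted beside it. Of 18 satellite cell, fibroblast and tendon markers, 5 were lower in BTBR and 0 higher, with a median of -0.28. They were Tnmd (tenomodulin, of tendon) at -1.52 ± 0.29, Mkx (a transcription factor of tendon) at -0.51 ± 0.16, Dpt (dermatopontin) at -1.38 ± 0.14, Pi16 at -0.66 and Ly6a at -0.53. Without 1 mouse that count ran from 2, without B6 lean mouse 24 or BTBR ob mouse 10, to 5. Without mice 26 and 9 it was 4, and Ly6a did not pass (adjusted p = 0.18 in limma). Kera (keratocan, a proteoglycan of cornea and tendon) differed by -2.09 ± 0.38, with BTBR ob mouse 18 again lowest of the BTBR mice at -3.58. The part of cell composition in the matrix result was not tested.

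Genes of fatty acid synthesis passed more often as lower than as higher. Of 22 members of fatty acid and triglyceride synthesis, 6 were lower and 1 higher in BTBR, with a median of -0.25. In B6 8 rose and 1 fell, and in BTBR 4 rose and 4 fell. Without mice 26 and 9 the strain difference again had 6 lower and 1 higher, with a median of -0.19. Fasn, the fatty acid synthase, read -1.65, -1.62, -1.60, -1.13 and -0.85 in B6 lean and -0.84, -0.28, -0.26, -0.14 and 0.14 in B6 ob mice. In BTBR Fasn was at -1.0, -0.95, -0.32, -0.07 and 0.74 in lean and -1.66, -1.54, -1.43, -1.18 and -1.08 in ob mice. The lean and ob ranges touched without crossing in each strain, in opposite order. The effects on Fasn, 1.09 in B6 and -1.06 in BTBR, both passed, and gave a strain difference of -2.15 ± 0.42 (adjusted p = 0.00099), which was -2.03 without mice 26 and 9. The desaturases Scd1 and Scd2 differed by -1.43 and -1.18 and the elongase Elovl6 by -1.19, while Gpam, which starts glycerolipid synthesis, was higher at 0.51. The regulator Srebf1 was at -0.78 (adjusted p = 0.052).

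Most adipocyte markers, which muscle dissections can carry, did not pass the strain difference. Of 19 markers, 4 were lower and 1 higher in BTBR and 14 did not pass, with a median of -0.20. Within B6 5 rose and 1 fell, and within BTBR 1 rose and 2 fell. Without mice 26 and 9, 5 rose and 2 fell in BTBR, and the strain difference again had 4 lower and 1 higher. The mean of the list per mouse ranged from -0.15 to -0.05 in B6 lean, -0.20 to 0.22 in B6 ob, -0.15 to 0.70 in BTBR lean and -0.33 to 0.07 in BTBR ob mice. Adipoq, the adipocyte hormone adiponectin, read -0.86, -0.67, -0.61, -0.42 and -0.16 in B6 lean and -0.06, 0.65, 1.06, 1.14 and 1.20 in B6 ob mice. Its BTBR values were -0.42, -0.32, 0.07, 0.40 and 1.70 in lean and -0.76, -0.51, -0.09, 0.22 and 0.62 in ob mice. It rose in B6 without overlap and the BTBR groups overlapped, and the strain difference of -1.74 ± 0.42 (adjusted p = 0.0078) was -1.60 without mice 26 and 9. Cfd (adipsin) fell in both strains, with effects of -2.42 in B6 and -4.31 in BTBR, and Lep, Fabp4 and Pparg were at -0.13, 0.30 and -0.20, none of which passed. The part of adipocyte RNA in the synthesis genes was not tested.

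Plasma-type and complement proteins were among the 14 lowest. Hp, haptoglobin, which binds free haemoglobin and is made by liver and fat, read -1.54, -1.37, -1.35, -1.14 and -1.0 in B6 lean and 0.13, 1.13, 1.27, 1.5 and 1.68 in B6 ob mice. In BTBR it read -0.09, 0.13, 0.48, 0.56 and 0.76 in lean and -0.79, -0.71, -0.12, -0.03 and 0.29 in ob mice. The B6 groups stood apart, with mouse 9 lowest among the ob mice, and the BTBR groups overlapped. The strain difference was -3.06 ± 0.33 (adjusted p = 1.6e-07), from effects of 2.42 in B6 and -0.64 in BTBR that both passed. Orm1, an acute-phase glycoprotein, differed by -2.51 ± 0.39, complement factor B (Cfb) by -1.79 ± 0.28 and C4a by -1.78 ± 0.30. The array's C4 probe gave -1.81, and C4 and C4a are near-identical genes whose probes cannot be told apart. Mouse 26 was far above its group for Cfb (1.37) and C4a (1.70), and without mice 26 and 9 the differences were -1.71 and -1.63.

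Macrophage markers were lower in BTBR for 5 of 23 and higher for 0, with a median of -0.52, and within BTBR 10 fell and 3 rose. Mrc1, the mannose receptor of resident macrophages, differed by -1.02 ± 0.24, and the C1q chains C1qa, C1qb and C1qc by -0.84, -0.96 and -0.94. Without mice 26 and 9 the count was 5, with a median of -0.35, and it was 8 without B6 lean mouse 22. Interferon response and antigen presentation genes fell with obesity in both strains, 8 of 31 in B6 and 21 of 31 in BTBR, and 0 passed the strain difference in limma (1 higher and 4 lower at an unadjusted p under 0.05). Without mice 26 and 9, 19 fell in B6, 17 fell and 1 rose in BTBR, and 1 was higher in BTBR by the strain difference.

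**Figure D4:**
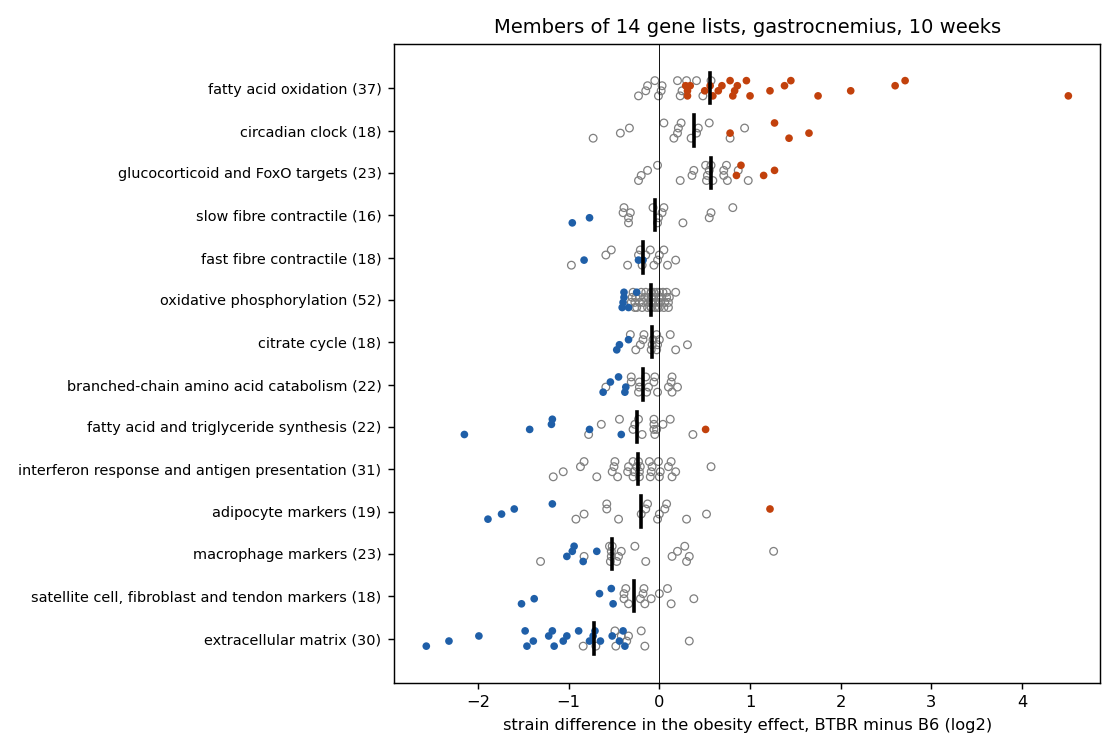
Strain difference in the obesity effect (horizontal axis, log2) of each measured member of 14 gene lists, gastrocnemius, 10 weeks; filled points passed an adjusted p of 0.05 (orange higher, blue lower in BTBR), open points did not, and bars are list medians. The medians are 0.56 for fatty acid oxidation and -0.72 for the extracellular matrix.

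Clock genes were higher in BTBR for 4 of 18 and lower for 0, with a median of 0.38, and within BTBR 9 rose. Without mice 26 and 9, 5 were higher by the strain difference and the median was 0.39. Cry2, a repressor of the clock, read -0.05, 0.05, 0.09, 0.10 and 0.30 in B6 lean and 0.14, 0.21, 0.30, 0.36 and 0.46 in B6 ob mice. In BTBR it was at -0.77, -0.77, -0.69, -0.47 and -0.39 in lean and 0.47, 0.59, 1.14, 1.26 and 1.56 in ob mice. The BTBR groups did not overlap and the B6 groups did, and the strain difference was 1.43 ± 0.22 (adjusted p = 3.5e-05). Per2 and Per1, also repressors of the loop, differed by 1.65 ± 0.41 (adjusted p = 0.01) and 1.27 ± 0.33 (adjusted p = 0.013), and Tef, an output factor, by 0.78 ± 0.19 (adjusted p = 0.0089). Cry1, a further repressor, was at -0.43 (adjusted p = 0.20) and Arntl, which encodes the activator BMAL1, at -0.73 (adjusted p = 0.21), and neither passed. The time of day of sampling is not stated, and its part was not tested.

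Of 23 glucocorticoid and FoxO targets, 4 were higher and 0 lower in BTBR, with a median of 0.57. They were Per1, Cebpd (1.15 ± 0.35), the transcription factor Klf15 (0.90 ± 0.26) and the stress sensor Sesn1 (0.85 ± 0.23). The count was 2 without mouse 26, B6 ob mouse 1823, BTBR ob mouse 10 or BTBR ob mouse 18. Without mice 26 and 9 it was also 2, and Cebpd and Klf15 did not pass (adjusted p = 0.093 and 0.073 in limma). Fkbp5, a standard readout of glucocorticoids, was at 0.55 (adjusted p = 0.67). Ubiquitin ligases and autophagy genes of muscle wasting passed for 2 of 24 higher and 1 lower, with a median of 0.18.

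A few genes of glucose handling passed, in both directions. Fbp2, the muscle fructose bisphosphatase, read -0.79, -0.67, -0.37, -0.36 and -0.30 in BTBR lean and 1.05, 1.22, 1.22, 1.33 and 1.37 in BTBR ob mice. All B6 mice lay between -0.26 and 0.39, and their groups overlapped. The strain difference was 1.59 ± 0.15 (adjusted p = 1.5e-08). Of 29 glycolysis and glycogen genes, Fbp2 was higher and Pgam2, a mutase, lower (-0.42 ± 0.11), a share near the 6.61% of all genes that passed. Pgam2 did not pass without mice 26 and 9 (adjusted p = 0.061 in limma). Of 27 insulin signalling and glucose uptake genes, 3 were higher and 1 lower, where 6.61% of all genes passed. Without mice 26 and 9, 2 were higher and 0 lower. The lower gene, Grb14, passed in 5 of 20 refits without 1 mouse, and Mtor, 1 of the 3 higher, in 14 of 20. Tbc1d4, the brake on Glut4 vesicles that insulin releases, differed by 1.04 ± 0.22 (adjusted p = 0.0022), and Pik3r1, the regulatory subunit of PI3 kinase, rose by 0.80 in B6 and 1.46 in BTBR.

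Most genes of oxidative phosphorylation and the citrate cycle did not pass, and those that did were lower. Of 52 oxidative phosphorylation genes, 6 were lower and 0 higher in BTBR, with a median of -0.09, and within BTBR 23 fell and 1 rose. Cox7a1, the muscle subunit of cytochrome oxidase, differed by -0.41 ± 0.10 and Ndufs1, of complex I, by -0.40 ± 0.11. That count was 3 without BTBR lean mouse 31 or BTBR ob mouse 18, and 4 without mice 26 and 9. At 4 weeks the median of the 52 was -0.13, with 1 lower (16 at an unadjusted p under 0.05 in limma). In the citrate cycle Idh3a, Fh1 and Mdh2 were lower, by -0.47, -0.44 and -0.34, and 0 of 18 were higher. Branched-chain amino acid catabolism had 5 of 22 lower, among them Dbt (-0.54 ± 0.11) and Bckdhb (-0.45 ± 0.08), subunits of the branched-chain ketoacid dehydrogenase, and within BTBR 15 fell and 0 rose. Without BTBR ob mouse 18, 3 of the 22 were lower.

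Slow fibre contractile genes rose in both strains, 13 of 16 in B6 and 14 of 16 in BTBR, and 2 passed the strain difference. Myh7, the slow myosin heavy chain, read -2.11, -2.09, -1.80, -1.52 and -1.15 in B6 lean and 0.12, 0.41, 0.43, 0.47 and 0.53 in B6 ob mice. For BTBR it was at -0.81, -0.75, -0.42, -0.36 and -0.08 in lean and 0.19, 0.65, 0.76, 0.81 and 0.97 in ob mice. Lean and ob mice did not overlap in either strain, and Myh7 rose by 2.12 in B6 and 1.16 in BTBR, a strain difference of -0.96 ± 0.25 (adjusted p = 0.013). Tnnt1, the slow troponin T, differed by -0.77 ± 0.19. Of 18 fast fibre genes 3 were lower, led by Ampd1, the muscle AMP deaminase (-0.83 ± 0.19). Among BTBR mice the lowest value of Ampd1 was -1.66, in BTBR ob mouse 18.

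Growth factors and myokines were lower in BTBR for 7 of 28 and higher for 1. Igfbp5, an IGF binding protein, differed by -1.19 ± 0.36 (adjusted p = 0.042), with mouse 18 at -2.70 and the other BTBR ob mice between -1.52 and -0.34. It passed in 7 of 20 refits without 1 mouse, and was at -0.85 (adjusted p = 0.096 in limma) without mouse 18. Fstl1 differed by -1.01 ± 0.20 and Metrnl by -0.64 ± 0.10. The count of lower members was 4 without B6 ob mouse 1751, 1752 or 1823, BTBR lean mouse 31 or 33, or BTBR ob mouse 18.

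Further genes were among the 14 highest. Lgals4, a galectin best known from gut epithelium, read -1.43, -1.20, -1.15, -0.91 and -0.83 in BTBR lean and 0.96, 1.20, 1.21, 1.24 and 1.24 in BTBR ob mice. The B6 groups, between -0.74 and 0.01, overlapped. The strain difference of Lgals4 was 1.95 ± 0.22 (adjusted p = 1.8e-07). Tmem100, a membrane protein of vessels, differed by 1.58 ± 0.25, Chrna2, a nicotinic receptor subunit, by 1.71 ± 0.20, and Depp1, a FoxO-driven gene, by 1.81 ± 0.31. Cyp1a1, the aryl hydrocarbon receptor target, differed by 1.70 ± 0.44. Chac1, which degrades glutathione, and Cldn5, the endothelial tight junction protein, differed by 2.07 ± 0.51 and 1.85 ± 0.33. Both fell in B6, with effects of -1.96 and -1.30, and did not pass in BTBR (effects of 0.11 and 0.54). Unc13c, a vesicle priming protein, and Ecrg4 were among the 14 lowest, at -1.91 ± 0.33 and -1.75 ± 0.33.

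At 4 weeks the same contrast in other mice passed for 32 genes (0.161%), 9 higher (0.0452%) and 23 lower (0.116%). Of the 37 fatty acid oxidation genes 0 passed at 4 weeks in limma (3 higher and 6 lower at an unadjusted p under 0.05), with a median of -0.13, and of the 30 matrix genes 0 passed (1 and 1), with a median of 0.06. The strain difference itself changed between the ages for 307 genes (1.54%), 114 up (0.573%) and 193 down (0.97%). It rose for 18 of the fatty acid oxidation genes and fell for 14 of the matrix genes. Acot1 was at 0.59 ± 0.32 at 4 weeks and changed by 3.92 ± 0.45 (adjusted p = 9.6e-07), Plin5 changed by 2.06 (adjusted p = 0.00077), Hp by -3.49 (adjusted p = 3.3e-05) and Col1a1 by -2.78 (adjusted p = 0.0024). Depp1 and Angptl4, already at 1.22 and 0.97 at 4 weeks without passing, changed by 0.59 and 1.15 (adjusted p = 0.69 and 0.22).

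Soleus, the slow calf muscle, was measured in the same mice. Its strain difference at 10 weeks passed for 1444 genes (7.26%), 666 higher (3.35%) and 778 lower (3.91%). The paired difference between muscles passed for 1187 genes (5.97%), 585 more positive (2.94%) and 602 more negative (3.03%) in gastrocnemius, from 39 mice with both muscles and 4 instead of 5 in BTBR ob at 10 weeks. Fatty acid oxidation had 11 members higher and 2 lower in soleus, with a median of 0.27, and 13 members had a strain difference that was more positive in gastrocnemius, against 2 more negative. The matrix had 1 member higher and 1 lower in soleus, with a median of -0.08, and 17 of 30 were more negative in gastrocnemius. Col1a1 was at -1.02 in soleus (adjusted p = 0.17) and differed between the muscles by -1.69 (adjusted p = 0.00087). Acot1 passed in both, at 3.25 ± 0.43 in soleus, and was more positive in gastrocnemius by 1.29 (adjusted p = 0.0011). Angptl4 was in the opposite order, at 3.39 in soleus and more negative in gastrocnemius (-1.21, adjusted p = 0.0076). Tbc1d4 was at -0.64 in soleus (adjusted p = 0.097), apart from gastrocnemius by 1.67 (adjusted p = 6.2e-06). Fbp2 and Chrna2 gave like values in soleus, 1.69 and 1.83, with differences between muscles of -0.09 and 0.00 (adjusted p = 0.86 and 1).

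**Figure D5:**
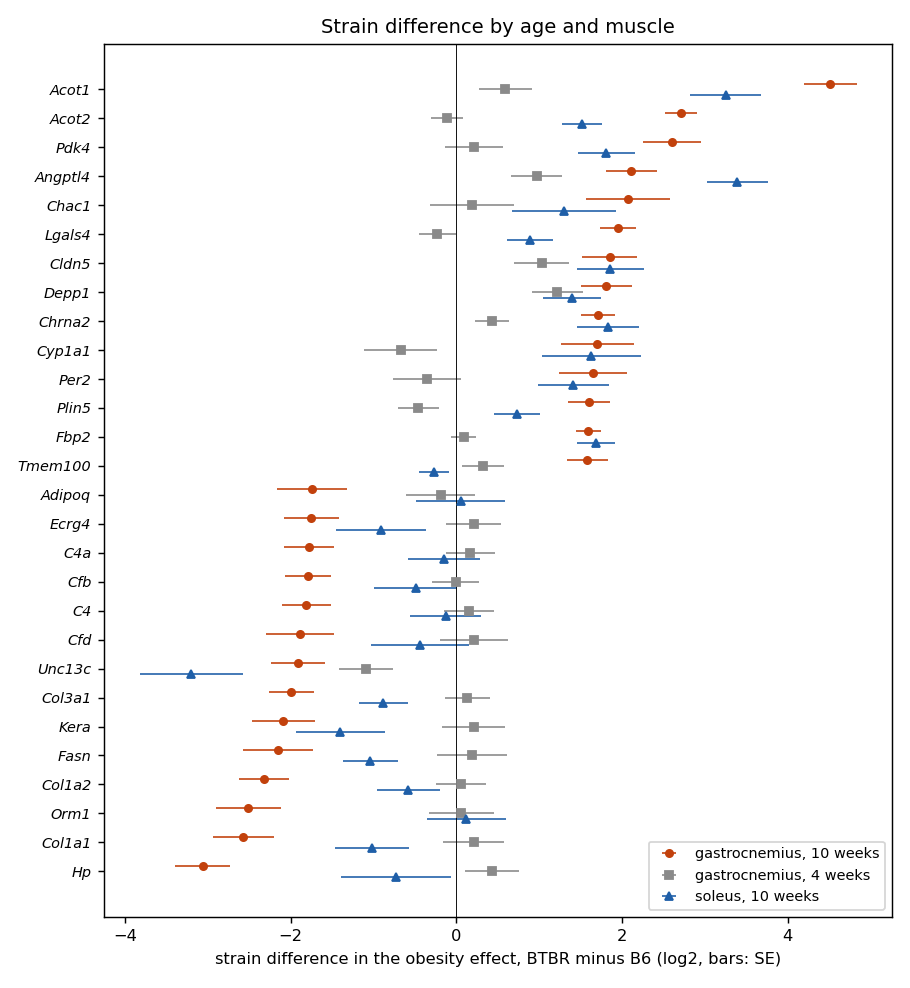
Strain difference in the obesity effect (horizontal axis, log2; bars are SE) for the 14 highest and 14 lowest named genes in gastrocnemius at 10 weeks, gastrocnemius at 4 weeks and soleus at 10 weeks. Hp is at -3.06, 0.43 and -0.73, and Acot1 at 4.51, 0.59 and 3.25.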

How the data were processed

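RNA was extracted with Trizol and RNeasy columns, amplified to cRNA and labelled with Cy3 or Cy5, per the labels' protocols. The values as deposited by the authors are log10 ratios of mouse and pool, limited to ±2.0. No source used here states the scanner or the background and dye correction. They were rescaled to log2. Array medians ran from -0.0051 to 0.0138 in log10, and no value was missing. Of 39556 probes, 23283 (58.9%) had 1 gene symbol in GEO's platform annotation, updated through RefSeq names, and the other 16273 are unnamed here. Probes were averaged to 19896 genes, 17027 with 1 probe.

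A mean per group was fitted to all 40 gastrocnemius arrays (8 groups, 4 and 10 weeks) with limma 3.58.1 in R 4.3.3 (lmFit, eBayes, Benjamini-Hochberg over 19896 genes, 2-sided). The muscles were compared on the difference per mouse. Mouse numbers in the titles pair gastrocnemius with soleus: over 39 mice the median correlation of deviations from the group mean was 0.284 for the same mouse and -0.0883 for another mouse of the group, and 36 were above 0.1. The fits were tested on simulated data. Named genes are the 14 largest strain differences each way that passed with and without every single mouse (placeholder symbols skipped), up to 4 passing members with the largest differences per list (2 with the smallest p where none passed), and Lep. The report also gives other list members, chosen after their values were seen. Members and the 33 lists were chosen with earlier results of these data known. Alternatives were array subset, centring, quantile scaling, array weights, robust variances, limits as missing, single probes and leaving out mice.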

Additional observations from a re-analysis of the deposited data

Results flagged for a closer look

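Among 244 sets of 5 mice (28 genes and 33 list means in 4 groups), 26 had 1 mouse whose gap to its neighbour exceeded 0.71 of the group's range. Chance gives about 1 in 20. BTBR lean mouse 26 was such a mouse for Acot1 (-1.69), C4 (1.70), Cfb (1.37) and C4a (1.70), and for the means of macrophage (0.70), lymphocyte and mast cell (0.20), adipocyte (0.70), red blood cell (-0.31) and interferon and antigen presentation genes (1.26). B6 ob mouse 9 was one for Plin5 (0.53), Col1a2 (-1.12), Cfd (-2.11), C4 (0.16), Cfb (0.15) and C4a (0.20). BTBR lean mouse 31 stood off for citrate cycle genes (0.16) and for ubiquitin ligases and autophagy (0.15), where BTBR ob mouse 18 did too (0.45). BTBR ob mouse 4 did so for Lgals4 (0.96) and lymphocyte and mast cell markers (-0.01). In B6 lean, mouse 22 stood off for Plin5 (-0.56), mouse 48 for Fbp2 (-0.26), mouse 24 for proteasome (0.24) and endothelial genes (-0.21), and mouse 23 for polyamine and arginine genes (0.08). BTBR lean mouse 32 was low for immediate early genes (-0.47). The cause of these values was not tested.

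The 28 genes named by size were picked for their 10-week gastrocnemius strain differences, which enter the comparisons with 4 weeks and with soleus. A high share passing is therefore partly built in by that choice. The strain difference differed between 10 and 4 weeks for 19 of the 28, by limma's test of the change, against 1.54% of all genes. It was more positive at 10 weeks for Acot1 (3.92), Acot2 (2.82), Pdk4 (2.39), Cyp1a1 (2.37), Lgals4 (2.18), Plin5 (2.06), Fbp2 (1.5) and Chrna2 (1.27). It was more negative for Hp (-3.49), Col1a1 (-2.78), Orm1 (-2.57), Col1a2 (-2.38), Fasn (-2.35), Kera (-2.30), Col3a1 (-2.13), C4 (-1.97), Ecrg4 (-1.97), C4a (-1.95) and Cfb (-1.77).

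Between gastrocnemius and soleus of the same mice the strain difference differed for 15 of the 28, picked as above, against 5.97% of all genes. It was more positive in gastrocnemius for Tmem100 (1.76), Acot1 (1.29), Acot2 (1.19), Lgals4 (1.02) and Plin5 (0.82). It was more negative for Orm1 (-2.65), Hp (-2.37), Adipoq (-2.01), Col1a2 (-1.89), C4 (-1.77), C4a (-1.71), Col1a1 (-1.69), Fasn (-1.26), Col3a1 (-1.23) and Angptl4 (-1.21).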

How the results depend on the processing

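The count of genes with a strain difference was 1316, and 967 (without BTBR ob mouse 18) to 1407 when any 1 mouse was left out. The same refits gave 2662 to 3059 for the B6 effect and 4344 to 4942 for the BTBR effect. Array weights raised the counts to 2641 for the strain difference, 5392 for the B6 effect, 64 for 4 weeks and 747 for the change with age. The cause of that rise was not tested. With each probe on its own the BTBR effect passed for 7681 probes, a count over more tests than the 19896 genes and so not on the same base. The paired comparison of muscles gave 1187 genes, and 373 with no replicate block. No paired analysis was possible because gastrocnemius groups of the same age share at most 1 mouse number and those of the same strain share 0; only the muscles are paired. Of 111 named genes 102 passed, 70 of them under all 28 settings. The genes named by size were chosen for passing with all mice and without each single mouse, so those settings could not fail for them. List genes were taken from passing members first, so 102 of 111 is no measure of robustness. Of 2856 comparisons over the genes that passed, 1 was reversed and 224 were weaker. Quantile scaling lost 22, single probes 14, leaving out mice 26 and 9 lost 13, and leaving out some 1 mouse lost 20. The 5 probes of Cblb disagreed, with 0.78 and 0.54 past the threshold and 0.47, -0.01 and -0.04 not. With 5 mice per group, the number of arrays limits what could pass.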

Other observations

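Over all genes the strain difference passed for 6.61%, with 2.73% higher and 3.88% lower in BTBR. In the amino acid and ER stress response, 2 of 26 genes were higher and 3 lower in BTBR. Asns, which makes asparagine, differed by -1.19 ± 0.17, Nupr1 by -0.98 ± 0.15 and Aldh1l2, of mitochondrial folate metabolism, by -0.93 ± 0.13. Chac1 and Atf4, which encodes the factor that drives these genes, were higher (2.07 ± 0.51 and 0.35 ± 0.10). Of 28 antioxidant genes 2 were higher, Cat and the secreted peroxidase Gpx3 (0.82 ± 0.17), and 2 lower, Sod3 (-0.79 ± 0.18) and Gsta4 (-0.61 ± 0.12). In cholesterol synthesis Mvd (0.89 ± 0.18) and Fdft1 (0.54 ± 0.13) were higher while Msmo1 (-0.65 ± 0.15) and Sqle (-0.43 ± 0.13) were lower, of 17 genes. The 2 probes of Sqle gave -0.83 and -0.04, and neither passed (adjusted p = 0.076 and 0.92 in limma). The mean of both passed in 7 of 20 refits without 1 mouse. Gamt, which completes creatine synthesis, was the member of 18 polyamine and arginine genes that passed (-1.16 ± 0.21). Cryab, a small heat shock protein, was the member of 21 heat shock genes that passed (0.83 ± 0.17). For the lists of 18 and 21 genes, these shares are below the 6.61% over all genes.

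Of 24 genes of denervation and the neuromuscular junction, Myod1 (-0.97 ± 0.23) and Mettl21e (-1.48 ± 0.41) were lower and 0 were higher, where 6.61% of all genes passed. The mast cell proteases Cpa3 (-0.69 ± 0.19), Mcpt4 (-0.49 ± 0.13) and Cma1 (-0.64 ± 0.16) were the 3 lower members of 18 lymphocyte and mast cell markers. Among 19 endothelial markers Cldn5 was higher and Plvap (-0.43 ± 0.13) and Cd34 (-0.53 ± 0.16) were lower. Plvap passed in 8 and Cd34 in 10 of 20 refits without 1 mouse, and neither passed without mice 26 and 9. Of 19 imprinted genes, Ndn (-0.68 ± 0.18), Nnat (-0.88 ± 0.27) and Dcn (-0.44 ± 0.09) were lower. Nnat passed in 9 of 20 refits without 1 mouse. Ccne1 (-0.19 ± 0.05) of 36 mitosis genes, Psmb5 (-0.27 ± 0.07) of 30 proteasome genes and, as higher, Kcnj11 (0.49 ± 0.14) of 27 calcium and excitation genes passed alone in their lists. These shares are below the 6.61% of all genes that passed. Ccne1 did not pass without mice 26 and 9 (adjusted p = 0.056 in limma). In limma 0 passed of 13 Schwann cell and nerve markers (2 lower at an unadjusted p under 0.05), 9 red blood cell markers (4 higher) and 24 immediate early genes (3 higher). Of the red blood cell markers, 3 passed as higher without BTBR lean mouse 26 or B6 ob mouse 1823, and 4 without B6 lean mouse 48 or B6 ob mouse 1822. Of the immediate early genes, 2 passed as higher without BTBR ob mouse 4.

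Of 16273 probes with no gene name here, 323 (1.98%) passed when tested alongside the named ones, 206 higher and 117 lower. That share is over probes, so it is not on the same base as the 6.61% over genes. The 2 highest and 2 lowest were probe 10028168273 (1.70 ± 0.18), probe 10018192243 (1.67 ± 0.17), probe 10028164268 (-1.77 ± 0.18) and probe 10018178674 (-1.75 ± 0.37).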
